A study of Mus musculus with 90 samples.

Results

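The T cell receptor signalling components described here are 44 genes that carry or restrain the signal from the antigen receptor of T cells. They form a list of named genes of the pathway, and all 44 were found among the 23420 genes of the deposited count table. The 90 libraries of mouse T cells fall into 30 groups. In the regulatory T cell (Treg) series, 10 groups of 3 libraries came from wild-type (WT) mice: naive effector T cells (Teff), and Tregs from naive mice, from a non-draining lymph node (ndLN) or from a tumour (TIL). At each of these sites the Tregs had been sorted as IL10-expressing cells, as cells expressing Ebi3, which encodes a subunit of IL-35, or as double-negative (DN) cells. In the CD8 series, 20 groups of CD8 T cells came from mice labelled yfp, Il10, Ebi3L or DKO. The series' design text describes IL-10, IL-35 and double knockouts that are specific to Tregs, so the deletion lay outside the sequenced cells and could not be checked in them. The CD8 cells were taken from a non-draining lymph node (NDLN) or sorted from tumours by the checkpoint receptors PD-1 and TIM-3. NEG cells lacked both, INT cells had an intermediate level of PD-1 and no TIM-3, SP cells had a high level of PD-1 without TIM-3, and DP cells combined high PD-1 with TIM-3. All fractions had been sorted a second time for purity. Each CD8 population was sequenced in 3 yfp, 4 DKO, 2 Il10 and 3 Ebi3L libraries. Each Treg-series group holds 1 library of each of 3 batches. The promoter that drives the Treg deletion, the ages of the mice and the tumour are not given in the labels.

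When a T cell meets its antigen, the kinase Lck phosphorylates the CD3 and zeta chains of the receptor complex, and Zap70 docks there and phosphorylates the scaffold Lat. Adaptors and enzymes gather on Lat and split the signal into calcium and NFAT, Ras, and protein kinase C and NF-kB branches, while phosphatases, ubiquitin ligases and diacylglycerol kinases turn it down. Tregs need the receptor to suppress, and T cells that meet antigen repeatedly in tumours come to carry PD-1 and TIM-3.

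Library totals ran from 9.73 to 20.2 M counts in the Treg series and from 19.2 to 47.7 M in the CD8 series (M, 1000000). Levels are counts per 1000000 counts of the library total (CPM). Changes are log2 fold changes with their standard error (SE), and rose and fell are used of genes with an adjusted p under 0.05 in edgeR's quasi-likelihood test over all genes. No label says that the libraries of a group came from separate animals, so a p-value here reflects only how far these libraries spread, which may be technical. In bulk libraries, fewer cells of a type and less RNA per cell cannot be told apart. Cd4 ran from 198 to 546 CPM in the Treg series and was at 0 in 46 of 60 CD8 libraries, and Cd8a ran from 694 to 1502 CPM in the CD8 series and was at 0 in 20 of 30 Treg-series libraries. Foxp3, which defines Tregs, ran from 29.1 to 157 CPM in the 27 Treg libraries and from 15.9 to 29.7 CPM in the 3 Teff libraries. Csf1r, a macrophage marker, was at 0 in 28 of the 30 Treg-series libraries. Lyz2, another myeloid marker, was at 0 in 9 of them, with a median of 1.23 and a maximum of 190 CPM. Some libraries may thus hold myeloid RNA, which was not tested. The Treg and CD8 libraries were made with different kit versions, so levels are not compared between the series.

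Across the 10 groups of the Treg series, 4 of the 44 members passed the test in none of the 11 comparisons of 2 groups: the transcription factors Nfatc2 and Nfatc3, the calcineurin regulator Rcan1 and the ubiquitin ligase Cbl. The other 40 passed in at least 1, and all genes were not counted in this way. Cd3d, a receptor chain, averaged between 915 CPM in ndLN.Ebi3 and 1173 CPM in ndLN.IL10, a ratio of 1.28, whereas Icos, the inducible costimulator, spanned a ratio of 27.4 and Themis, an adaptor first known from thymocytes, a ratio of 21.8. Teff held the highest mean of 17 members, and TIL.Ebi3 held the lowest mean of 15. The same counts over all genes were not made, so these are not shown to be particular to the members.

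**Figure D1:**
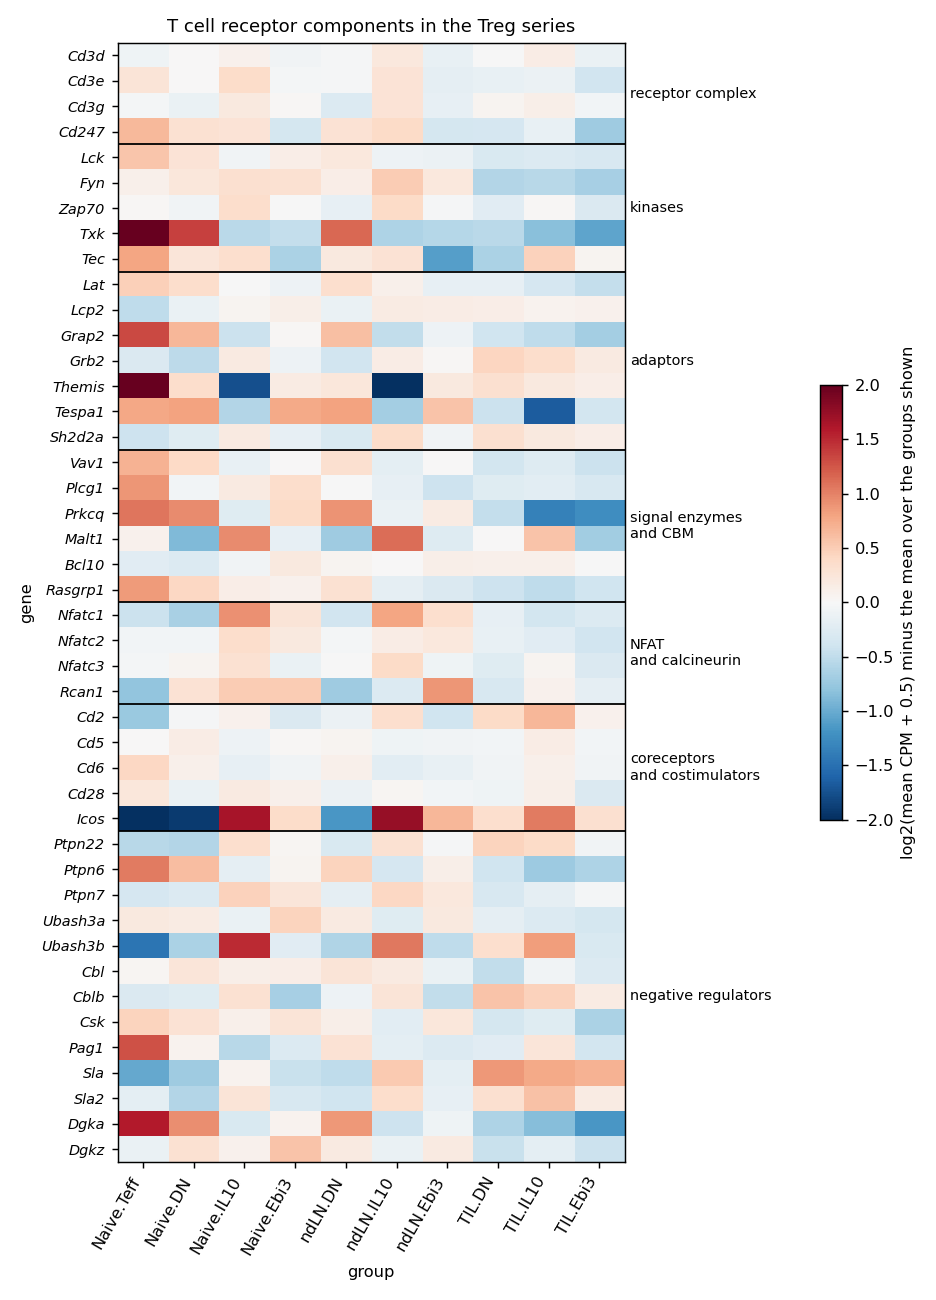
Levels of the 44 members (rows, by role) in the 10 groups of the Treg series (columns), as log2(mean CPM + 0.5) minus the row's mean over the groups, with colours limited to 2 in each direction. The rows of the CD3 chains are pale, while Icos, Themis, Txk, Ubash3b and Dgka change colour between the DN and IL10 columns.

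Naive DN Tregs were compared with naive Teff to show how the components differ between these cell types outside a tumour. Of the 44 members, 5 rose and 12 fell, beside 8.79% of all 12907 tested genes that rose and 3.42% that fell. The median log2 fold change was -0.07 over the members and 0.03 over all genes. The members that rose were the adhesion receptor Cd2, Icos, the adaptor Lcp2, the phosphatase-like Ubash3b and the diacylglycerol kinase Dgkz. Cd2 stood at 778, 772 and 1040 CPM in the Teff libraries and at 1541, 1201 and 1528 CPM in the DN libraries. All 3 DN values lay above all 3 Teff values, and the log2 fold change was 0.75 ± 0.10 (SE, adjusted p = 3.71e-06).

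Themis fell most among the members in this comparison. It stood at 173, 231 and 281 CPM in Teff and at 51.6, 83.2 and 44.5 CPM in naive DN Tregs, without overlap, with a log2 fold change of -1.88 ± 0.25 (SE, adjusted p = 3.73e-06). Pag1, which anchors the inhibitory kinase Csk at the membrane, fell by the next largest amount. Pag1 read 102, 77.6 and 98.7 CPM in Teff and 32.4, 42.4 and 45.2 CPM in DN Tregs, and its log2 fold change was -1.19 ± 0.22 (SE, adjusted p = 0.000446). The groups did not overlap for Pag1 either. The phospholipase Plcg1 (-1.10 ± 0.27), the protease Malt1 of the NF-kB branch (-0.92 ± 0.19) and the Tec family kinase Txk (-0.70 ± 0.22) fell as well. The receptor chain Cd3e (-0.23 ± 0.07), Lck (-0.25 ± 0.07), the Lat partner Grap2 (-0.63 ± 0.13), the Ras activator Rasgrp1 (-0.41 ± 0.13), the costimulator Cd28 (-0.32 ± 0.09), the phosphatase Ptpn6 (-0.37 ± 0.12) and the diacylglycerol kinase Dgka (-0.62 ± 0.09) completed the group. The number of members called was 11, 9 and 7 without replicates 1, 2 and 3, and Malt1, Plcg1, Txk and Ubash3b lost their call without at least 1 of them. Over all genes those fits had 753, 893 and 636 higher and 262, 230 and 214 lower, against 1134 and 441 with all replicates. Without the replicate block 8 members were called, and over all genes 705 were higher and 152 lower. Among the 71 other genes of the pathway, 8 rose and 11 fell. Marker sums of other cells moved with this comparison without overlap. That of 6 B cell markers was 0.617 to 4.21 CPM in Teff and 31 to 72 CPM in naive DN libraries, with Pax5 and Blk at 0 in all 6. That of 3 CD4 T cell markers was 650 to 800 against 287 to 377 CPM, and that of 11 myeloid markers was 86.9 to 114 against 115 to 160 CPM, with Csf1r, Cd14, C1qa and C1qb at 0 in all 6. Their part in the members' changes was not tested.

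IL10-expressing Tregs were compared with DN Tregs at each site, which asks how the components differ in cells that make this cytokine. In naive mice 14 members rose and 11 fell, beside 9.98% and 7.85% of all genes, and in the node 17 rose and 11 fell, beside 8.81% and 7.37%. The naive and node comparisons share no library. They called 13 of the same members as higher, which is 92.9% of the naive and 76.5% of the node list, and 9 of the same members as lower, which is 81.8% of each list. Over all genes these shares were 59.5% and 67.5% for higher genes and 58.5% and 62.4% for lower genes, and no gene was called in opposite directions.

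Icos changed most. It stood at 265, 315 and 404 CPM in naive DN libraries and at 3521, 3971 and 4140 CPM in naive IL10 libraries, a log2 fold change of 3.57 ± 0.16 (SE, adjusted p = 8.01e-15). In the node it stood at 371, 539.5 and 753 CPM in DN and at 4048, 3973 and 4481 CPM in IL10 libraries, a log2 fold change of 2.94 ± 0.15 (SE, adjusted p = 3.18e-13). Every IL10 library was above every DN library at both sites. Icos maps to chr1:60977927-61000320, plus strand in mm10, on the same chromosome and strand as the costimulator gene Cd28, which rose in the naive comparison (0.31 ± 0.09) and did not pass in the node (0.17 ± 0.09 SE, adjusted p = 0.237).

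Of the receptor chains, Cd3e and Cd3g rose at both sites. Cd3g read 1326, 782 and 1414 CPM in node DN libraries and 1724, 1453 and 2009 CPM in node IL10 libraries, without overlap, with a log2 fold change of 0.60 ± 0.09 (SE, adjusted p = 2.51e-05). Zap70 rose at both sites (0.41 ± 0.10 naive, 0.56 ± 0.10 node), and Lck fell at both (-0.36 ± 0.07 and -0.30 ± 0.07). Txk fell by more than any other kinase. Txk stood at 154, 155 and 142 CPM in node DN libraries and at 38.4, 42 and 50.5 CPM in node IL10 libraries, a log2 fold change of -1.78 ± 0.23 (SE, adjusted p = 2.62e-06), and in naive mice its change was -1.91 ± 0.23. The groups were apart at both sites.

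Adaptors moved in both directions. Themis stood at 48.2, 60.6 and 55.6 CPM in node DN libraries and at 10.3, 11.4 and 9.77 CPM in node IL10 libraries, a log2 fold change of -2.37 ± 0.26 (SE, adjusted p = 1.8e-07). In naive mice Themis read 51.6, 83.2 and 44.5 CPM in DN and 6.59, 11.7 and 22 CPM in IL10 libraries, a change of -2.20 ± 0.26 (SE, adjusted p = 4.38e-07). The IL10 libraries lay below all DN libraries at both sites. Tespa1, an adaptor linked to calcium signals in thymocytes, fell by 1.49 on the log2 scale in the node, from 218 ± 19.2 to 77.4 ± 15.2 CPM (mean ± SD, n = 3). Grap2, which bridges Lat and Lcp2, changed by -1.11 ± 0.13 in naive mice and by -1.09 ± 0.13 in the node. The T cell specific adaptor Sh2d2a and the Ras adaptor Grb2 rose at both sites, with node values of 0.67 ± 0.10 and 0.58 ± 0.16.

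Among the signal enzymes, Malt1 rose and the protein kinase C theta gene Prkcq fell. Malt1 stood at 69.6, 63.7 and 64.9 CPM in node DN libraries and at 237, 239.9 and 234 CPM in node IL10 libraries, and its log2 fold change was 1.84 ± 0.19 (SE, adjusted p = 8.17e-08). Prkcq stood at 406, 695 and 407 CPM and 214, 330.5 and 192 CPM, with a change of -1.02 ± 0.12 (SE, adjusted p = 8.45e-07). Neither pair of groups overlapped. Bcl10, the partner of Malt1, read 108 ± 30.4 CPM in node DN and 105 ± 20.1 CPM in node IL10 Tregs (mean ± SD, n = 3), and its change of -0.02 ± 0.13 (SE, adjusted p = 0.955) did not pass. The exchange factor Vav1 fell at both sites (-0.62 ± 0.13 and -0.49 ± 0.13). Nfatc1 rose at both sites, with a log2 fold change of 1.57 ± 0.20 (SE, adjusted p = 1.07e-06) in naive mice and 1.22 ± 0.19 (SE, adjusted p = 4.83e-05) in the node.

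Negative regulators also split. Ubash3b rose at both sites, from 60.2, 70.2 and 39.3 CPM in naive DN libraries to 211, 276 and 262 CPM in naive IL10 libraries, with no overlap and a log2 fold change of 2.15 ± 0.18 (SE, adjusted p = 1.76e-09). The phosphatase genes Ptpn22 (0.61 ± 0.16 in the node) and Ptpn7 (0.60 ± 0.13) and the adaptors Sla (1.02 ± 0.13) and Sla2 (0.77 ± 0.13), which promote loss of receptor complexes, rose at both sites. Dgka fell at both sites. Dgka read 967, 1590 and 1103 CPM in naive DN libraries and 456, 659 and 444 CPM in naive IL10 libraries, and its log2 fold change was -1.22 ± 0.09 (SE, adjusted p = 2.55e-10). The highest IL10 value was below the lowest DN value. Ptpn6, which encodes the phosphatase SHP-1, fell at both sites (-0.81 ± 0.12 and -0.75 ± 0.12).

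The 8 members with the largest changes at each site were Icos, Themis, Ubash3b, Txk, Malt1, Nfatc1, Tespa1 and Dgka, and each kept its call without each replicate in turn. Node counts without a replicate went down to 17 members, without replicate 2, where 661 of all genes were higher and 485 lower. Without the replicate block 16 members were called at each site. Over all genes that fit had 865 higher and 509 lower in naive mice, against 1288 and 1013 with the block. In the node it had 640 and 475, against 1137 and 951. Among the 71 other pathway genes, 9 rose and 12 fell in the node, with the receptor-associated Trat1 at -1.45 ± 0.16 (adjusted p = 1.88e-07) and the kinase subunit Pik3cd at -1.39 ± 0.18 (adjusted p = 2.12e-06). The summed level of 6 stromal markers was lower in node IL10 libraries, at 42.9 to 46.7 CPM, than in node DN libraries, at 165 to 272 CPM, and that of 11 myeloid markers was higher, at 180 to 225 against 101 to 149 CPM. In both groups the stromal markers Col3a1, Sparc and Kdr and the myeloid markers Csf1r and C1qb were at 0 in all 6 libraries. In naive mice the stromal sum was 32.3 to 59.5 CPM in IL10 and 158 to 279 CPM in DN libraries, and the myeloid sum was 170 to 247 against 115 to 160 CPM. Cst3, a widely expressed gene, made up 43.2 to 98.9% of the myeloid sum in the Treg series. The part of these markers in the members' changes was not tested.

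**Figure D2:**
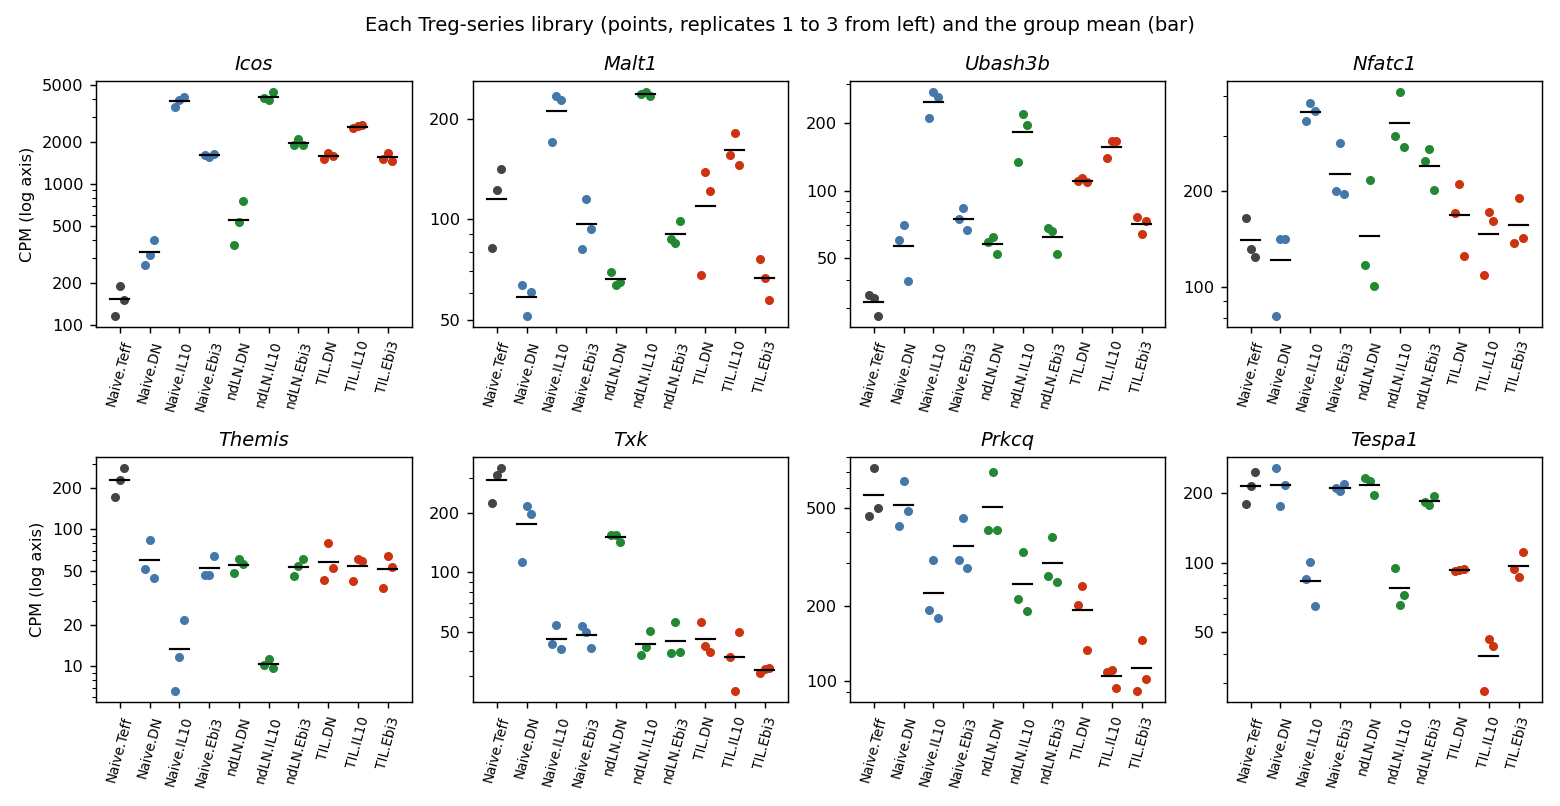
The members Icos, Malt1, Ubash3b, Nfatc1, Themis, Txk, Prkcq and Tespa1 in each of the 30 libraries of the Treg series, in CPM on a log axis, with 1 point a library and a bar at the group mean. Icos, Malt1, Ubash3b and Nfatc1 are higher in the IL10 than the DN libraries of naive mice and nodes, Themis is lower in those IL10 libraries but not in tumours, and Txk, Prkcq and Tespa1 are lower in tumour DN than node DN libraries.

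Ebi3-expressing Tregs were compared with DN Tregs in the same way. In naive mice 6 rose and 11 fell, beside 7.4% and 5.45% of all genes, and in the node 2 rose and 12 fell, beside 6.96% and 6.07%. Icos and Nfatc1 rose at both sites. Icos stood at 1899, 2092 and 1906 CPM in node Ebi3 libraries, above all node DN libraries, with a log2 fold change of 1.80 ± 0.15 (SE, adjusted p = 8.5e-09), and its naive change was 2.22 ± 0.15 (SE, adjusted p = 1.91e-10). The zeta chain gene Cd247 fell at both sites. Cd247 stood at 574, 547 and 528 CPM in node DN libraries and at 383, 364 and 315 CPM in node Ebi3 libraries, without overlap, a change of -0.69 ± 0.13 (SE, adjusted p = 0.000505). In naive mice Cd247 changed by -0.74 ± 0.13 (SE, adjusted p = 0.000262).

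Both Tec family kinases among the members fell in the Ebi3 cells at both sites. Tec stood at 24.6, 22.6 and 24.8 CPM in node DN libraries and at 9.11, 11.1 and 8.16 CPM in node Ebi3 libraries, with a change of -1.41 ± 0.33 (SE, adjusted p = 0.00445), and Txk at 39.4, 56.5 and 39.6 CPM in node Ebi3 libraries, with a change of -1.80 ± 0.23 (SE, adjusted p = 6.52e-06). The Ebi3 values of both genes lay below all DN values. Txk (chr5:72695978-72752777, minus strand) and Tec (chr5:72755716-72868483, minus strand) are neighbours 2938 bases apart. The others called as lower at both sites were Cd2, Dgka, Grap2, Lat, Prkcq, Ptpn6 and Rasgrp1, with node changes from -1.0 ± 0.09 for Dgka to -0.32 ± 0.10 for Cd2. Themis read 45.5, 54.2 and 61.1 CPM in node Ebi3 libraries, overlapping the DN libraries, and did not pass (-0.09 ± 0.24 SE, adjusted p = 0.872). Nfatc1 and Tec lost their call at each site without at least 1 replicate. The number of called members was 9 and 8 in naive mice without replicates 2 and 3, 8 in the node without replicate 3, and 6 at each site without the replicate block. Without replicates 2 and 3, 588 and 515 of all genes were higher and 346 and 281 lower in naive mice. In the node without replicate 3, 426 were higher and 339 lower. Over all genes the fit without the block had 612 higher and 287 lower in naive mice, against 955 and 703 with it. In the node it had 415 and 347, against 898 and 783. On the authors' deposited log2 values the node split was 5 higher and 11 lower, beside 1279 and 782 over all genes. Among the other pathway genes 5 rose and 9 fell in the node. The stromal marker sum was lower in Ebi3 than in DN libraries at both sites, at 85.1 to 102 against 165 to 272 CPM in the node and 91.6 to 127 against 158 to 279 CPM in naive mice, with Col3a1, Sparc and Kdr at 0 in all of them, and its part was not tested.

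Tumour Tregs were compared with node Tregs within each sorted subset. For DN Tregs 12 members rose and 13 fell, beside 12.9% and 10.5% of all genes. For IL10 Tregs 6 rose and 8 fell, beside 5.56% and 3.77%, and for Ebi3 Tregs 7 rose and 7 fell, beside 6.24% and 4.01%. Fyn, Prkcq and Tespa1 fell and Cd2, Sla and Sla2 rose in all 3 subsets.

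The Src family kinase Fyn stood at 224, 226 and 220.4 CPM in node DN libraries and at 137, 141 and 132 CPM in tumour DN libraries, with a change of -0.59 ± 0.11 (SE, adjusted p = 0.000331). In IL10 cells Fyn went from 292 ± 7.4 to 139 ± 19.9 CPM (mean ± SD, n = 3), a change of -0.90 ± 0.11 (SE, adjusted p = 2.77e-06), and in Ebi3 cells its change was -0.71 ± 0.11 (SE, adjusted p = 6.1e-05). Tumour and node libraries were apart in all 3 subsets. Prkcq stood at 204, 242 and 134 CPM in tumour DN, 109, 111 and 94 CPM in tumour IL10 and 91, 146 and 102 CPM in tumour Ebi3 libraries. Its changes from the node were -1.24 ± 0.12 (SE, adjusted p = 2.49e-08), -1.0 ± 0.12 and -1.25 ± 0.12 in that order, again without overlap. Sla, an adaptor that reduces receptor levels, went from 369, 502 and 329 CPM in node DN to 924, 1307 and 887 CPM in tumour DN libraries, a change of 1.5 ± 0.13 (SE, adjusted p = 1.21e-09).

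In DN Tregs, members of most roles moved in both directions. Txk stood at 56.2, 42.8 and 39.98 CPM in tumour DN libraries against 154, 155 and 142 CPM in the node, with a change of -1.57 ± 0.23 (SE, adjusted p = 1.01e-05). Dgka fell from 1011, 1618 and 865 to 382, 564 and 309 CPM, with a change of -1.35 ± 0.09 (SE, adjusted p = 3.46e-11). Both genes separated the groups. Lck (-0.38 ± 0.07), Lat (-0.36 ± 0.09), Grap2 (-0.88 ± 0.13), Vav1 (-0.56 ± 0.13), Rasgrp1 (-0.60 ± 0.13), Cd247 (-0.49 ± 0.13), Ptpn6 (-0.74 ± 0.12) and Dgkz (-0.51 ± 0.16) fell too. Icos rose from 371, 539.5 and 753 to 1493, 1650 and 1579 CPM, with a change of 1.65 ± 0.15 (SE, adjusted p = 2.56e-09). Ubash3b (1.07 ± 0.18), Ptpn22 (0.88 ± 0.16), the ubiquitin ligase Cblb (0.83 ± 0.26), Malt1 (0.82 ± 0.19), Sh2d2a (0.75 ± 0.10), Grb2 (0.96 ± 0.16), Lcp2 (0.37 ± 0.09) and Cd3g (0.49 ± 0.09) rose.

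The node levels of IL10 cells differed from those of DN cells as given above, and 13 members had a change between node and tumour that differed between IL10 and DN cells by a test of that difference: 6 more positive and 7 more negative in IL10 cells, beside 1.98% and 2.5% of all genes. Themis went from 10.3, 11.4 and 9.77 CPM in node IL10 libraries to 41.9, 60.7 and 58.9 CPM in tumour IL10 libraries, while the DN libraries read 54.8 ± 6.27 and 58.2 ± 19.2 CPM (mean ± SD, n = 3). The IL10 change was 2.50 ± 0.26 (SE, adjusted p = 1.05e-07), and the difference from DN cells was 2.32 ± 0.35 (SE, adjusted p = 0.000136). Icos went the other way in the subsets: it fell from 4048, 3973 and 4481 to 2497, 2567 and 2609 CPM in IL10 cells (-0.53 ± 0.14 SE, adjusted p = 0.015) and rose in DN cells, a difference of -2.18 ± 0.20 (SE, adjusted p = 1.22e-07). Nfatc1 fell in tumour IL10 cells (-0.97 ± 0.19 SE, adjusted p = 0.000932), and its difference from DN cells was -1.35 ± 0.27 (SE, adjusted p = 0.00296). The other members with a differing change were Cd3g, Lck, Txk, Grap2, Sh2d2a, Vav1, Malt1, Ubash3b, Sla and Dgka. These differences share the node and tumour DN libraries with the DN comparison.

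For Ebi3 cells 2 members had a more positive and 2 a more negative change than DN cells, beside 0.643% and 0.968% of all genes. They were Tec (2.09 ± 0.46 SE, adjusted p = 0.0159), Txk (1.25 ± 0.32 SE, adjusted p = 0.0419), Malt1 (-1.09 ± 0.26 SE, adjusted p = 0.0298) and Icos (-1.84 ± 0.20 SE, adjusted p = 6.54e-06). Tec rose in tumour Ebi3 libraries, to 25, 24.6 and 15.2 CPM from 9.11, 11.1 and 8.16 CPM in the node, with a change of 1.34 ± 0.33 (SE, adjusted p = 0.00687). All 3 tumour values lay above all 3 node values. Csk, the kinase that inhibits Lck, fell from 162 ± 24.1 to 89.1 ± 20.5 CPM (mean ± SD, n = 3), with a change of -0.71 ± 0.16 (SE, adjusted p = 0.00287).

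All 8 of the largest DN changes between node and tumour kept their call without each replicate. In IL10 cells Cd2, Cd6, Icos and Tespa1 lost theirs without at least 1 replicate, and 8, 8 and 5 members were called without replicates 1, 2 and 3. Over all genes those fits had 448, 482 and 326 higher and 253, 319 and 209 lower. In Ebi3 cells Cblb, Csk, Tec and Tespa1 lost their call, and 9, 8 and 8 members were called. There 550, 499 and 456 of all genes were higher and 337, 276 and 235 lower. Of the differences from DN cells, those of Malt1, Nfatc1, Txk and Ubash3b lost their call in IL10 cells without at least 1 replicate, and those of Malt1, Tec and Txk in Ebi3 cells. Without replicates 2 and 3 the IL10 differences numbered 8 and 7, and the Ebi3 differences numbered 2, 1 and 1 without replicates 1, 2 and 3. Over all genes those IL10 fits had 83 and 64 more positive and 128 and 148 more negative, against 256 and 323 with all replicates. The Ebi3 fits had 32, 15 and 14 more positive and 70, 37 and 38 more negative, against 83 and 125. On the authors' deposited log2 values, where the median gene lay lower in tumours (-0.20 on the log2 scale in both subsets against -0.02 and -0.04 in the main fit), IL10 cells had 3 members higher and 13 lower and Ebi3 cells had 3 higher and 17 lower. Over all genes those values gave 551 higher and 1408 lower in IL10 cells, and 622 and 1283 in Ebi3 cells. Without the replicate block 5 members were called in IL10 cells, 6 in Ebi3 cells, and 8 and 2 differences from DN cells. Over all genes that fit had 395 higher and 248 lower in IL10 cells, against 717 and 486 with the block. In Ebi3 cells it had 468 and 285, against 805 and 518. Its differences from DN cells over all genes were 61 more positive and 109 more negative for IL10, and 10 and 30 for Ebi3. DESeq2 gave 5 more positive and 3 more negative differences for Ebi3 cells, beside 156 and 248 over all genes. The myeloid marker sum was 169 to 261 CPM in tumour DN and 101 to 149 CPM in node DN libraries, with Csf1r, Cd14 and C1qb at 0 in all of them. The stromal marker sum was lower in tumours in each subset, at 65.1 to 117 against 165 to 272 CPM in DN, 19.7 to 39.4 against 42.9 to 46.7 CPM in IL10 and 51.8 to 75.9 against 85.1 to 102 CPM in Ebi3 libraries. The B cell marker sum was lower in tumours in IL10 cells, at 21.8 to 33.7 against 44.2 to 67 CPM, and in Ebi3 cells, at 28.9 to 51.3 against 54.1 to 81.8 CPM. The part of these markers in the members' changes was not tested.

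Within the tumour fewer members passed. IL10 against DN Tregs had 1 member higher and 2 lower, beside 0.271% and 0.566% of all genes. Icos rose, from 1493, 1650 and 1579 to 2497, 2567 and 2609 CPM (0.76 ± 0.14 SE, adjusted p = 0.00436). Tespa1 fell, from 92, 92.8 and 93.7 to 27.6, 46.4 and 43.6 CPM (-1.19 ± 0.18 SE, adjusted p = 0.000554), and Prkcq fell (-0.79 ± 0.12 SE, adjusted p = 0.000651). None of the 3 genes had overlapping groups, and Tespa1 alone kept its call without each replicate. Without replicate 2, 1 member was called, and DESeq2 called 3 higher and 2 lower. Over all genes those fits had 11 higher and 34 lower, and 89 and 132, against 35 and 73 in the main fit. Ebi3 against DN Tregs had 0 higher and 2 lower, beside 0.0852% and 0.628%, and these were Prkcq (-0.79 ± 0.12 SE, adjusted p = 0.00109) and Dgka (-0.56 ± 0.09 SE, adjusted p = 0.00178). Both lost their call without replicate 1, where Prkcq was at -0.57 ± 0.14 (adjusted p = 0.13), and Dgka also without replicate 3. Without replicates 1 and 3 in turn 1 member was called, and without the replicate block 0 were called. Over all genes these fits had 0 higher and, in that order, 17, 10 and 16 lower, against 11 and 81 in the main fit. DESeq2 called 6 members in this comparison and limma on the deposited values called 5. Over all genes DESeq2 called 47 higher and 149 lower, and limma 32 and 107.

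IL10 against Ebi3 Tregs in the tumour had 11 members higher and 1 lower, beside 1.77% and 1.07% of all genes. The receptor chains Cd3d (0.37 ± 0.10), Cd3e (0.33 ± 0.07) and Cd247 (0.63 ± 0.13) were higher in IL10 cells, with Zap70 (0.36 ± 0.10) and the surface receptors Cd2 (0.65 ± 0.10), Cd28 (0.47 ± 0.09) and Icos (0.80 ± 0.14). Malt1 stood at 155, 181 and 146 CPM in tumour IL10 and at 76.2, 66.7 and 57.5 CPM in tumour Ebi3 libraries, with a change of 1.32 ± 0.19 (SE, adjusted p = 0.000252). Ubash3b stood at 139.7, 167 and 166 CPM and 76.6, 64.1 and 72.9 CPM, with a change of 1.21 ± 0.18 (SE, adjusted p = 0.000314). The groups did not overlap for either gene. Sla2 and Dgka were also higher, and Tespa1 was lower in IL10 cells (-1.24 ± 0.18 SE, adjusted p = 0.00032). Without replicate 3, 2 members were called, Tespa1 and Ubash3b among the named ones keeping their call in every such fit, and without replicate 2, 6 were called. Over all genes those fits had 18 higher and 14 lower, and 68 and 53. Without the replicate block 4 members were called, and over all genes 27 were higher and 24 lower, against 228 and 138 with it. In the tumour the stromal marker sum of IL10 libraries, 19.7 to 39.4 CPM, lay below that of DN (65.1 to 117 CPM) and Ebi3 libraries (51.8 to 75.9 CPM), and its part in these comparisons was not tested.

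The CD8 populations ask how the components change as tumour CD8 T cells gain PD-1 and TIM-3. In yfp libraries DP cells had 7 members higher and 19 lower than NEG cells, beside 17.2% and 16% of all 12791 tested genes. The median log2 fold change was -0.20 over the members and 0.02 over all genes. Of the 5 kinases 4 fell and of the 6 signal enzymes 5 fell, with none higher in either role, while of the 13 negative regulators 4 rose and 3 fell.

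**Figure D3:**
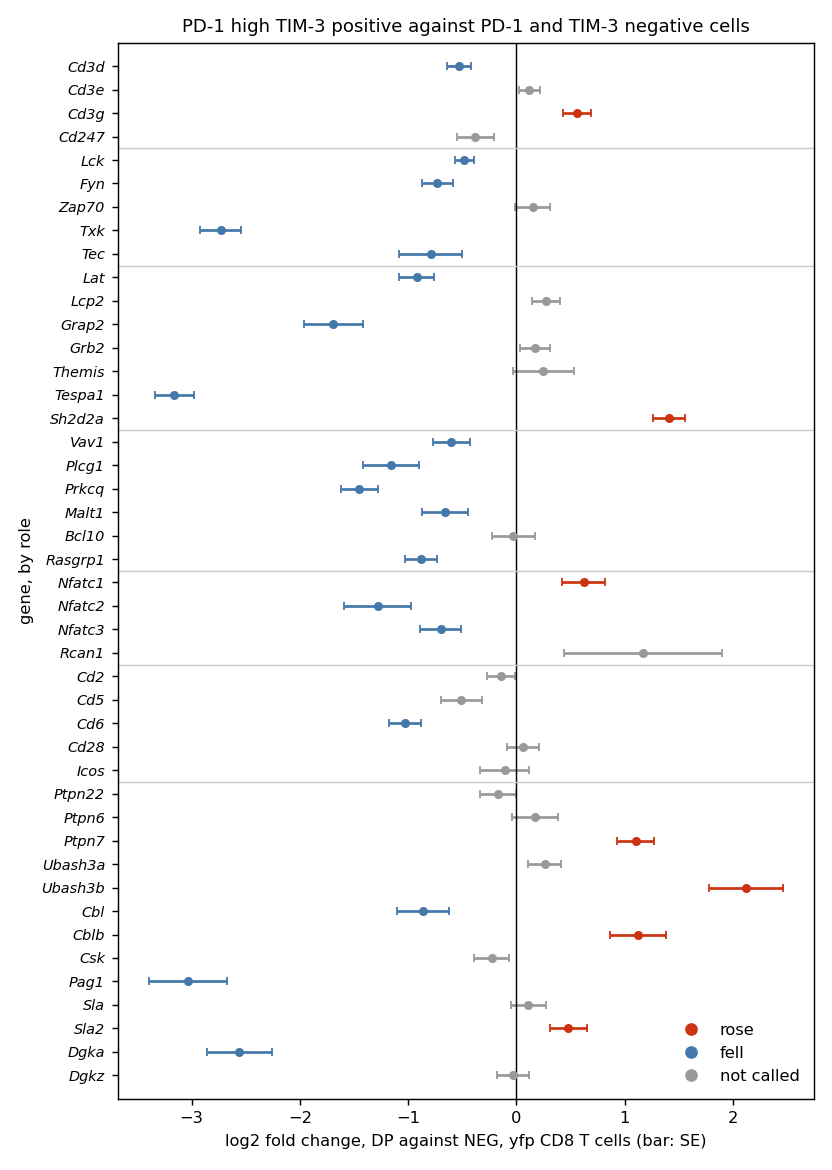
Log2 fold change of each member between DP and NEG yfp CD8 T cells (point) with its SE (bar), ordered by role, with red for members that rose, blue for members that fell and grey for the others. Tespa1, Pag1, Txk and Dgka lie below -2, and Ubash3b lies above 2.

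Tespa1 changed most. It stood at 120.3, 101 and 158 CPM in NEG and at 10.4, 13.5 and 17.7 CPM in DP libraries, a log2 fold change of -3.16 ± 0.18 (SE, adjusted p = 1e-07). Tespa1 read 84.5, 94.7 and 88.7 CPM in SP libraries, and DP against SP was the step at which it fell most, by 2.64 on the log2 scale. The DP values lay below the lowest SP value. Among the other adaptors, Lat (-0.92 ± 0.16) and Grap2 (-1.69 ± 0.27) fell and Sh2d2a rose. Sh2d2a rose from 225, 223 and 186 CPM in NDLN through 486, 319 and 353 CPM in NEG to 993, 1047 and 972 CPM in DP libraries, with a change of 1.41 ± 0.15 (SE, adjusted p = 1.32e-05) from NEG to DP. None of these groups overlapped.

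Txk stood at 354, 370.2 and 258 CPM in NEG and at 55.5, 48.2 and 39.6 CPM in DP libraries, a log2 fold change of -2.73 ± 0.19 (SE, adjusted p = 6.08e-07). Lck (-0.48 ± 0.09), Fyn (-0.73 ± 0.14) and Tec (-0.79 ± 0.29) fell by less, and Zap70 did not pass (0.15 ± 0.16 SE, adjusted p = 0.496). Prkcq stood at 413, 491 and 203 CPM in NEG and at 184, 148 and 69.3 CPM in DP libraries, with a change of -1.45 ± 0.17 (SE, adjusted p = 3.4e-05). The DP libraries were below the NEG libraries for Txk and Prkcq. Vav1 (-0.60 ± 0.17), Plcg1 (-1.16 ± 0.26), Malt1 (-0.66 ± 0.21) and Rasgrp1 (-0.88 ± 0.15) fell as well. The NFAT genes divided: Nfatc1 rose (0.62 ± 0.20), while Nfatc2 (-1.28 ± 0.31) and Nfatc3 (-0.70 ± 0.19) fell.

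Negative regulators held some of the largest changes in either direction. Pag1 stood at 62, 61.9 and 50.5 CPM in NEG and at 13.6, 6.29 and 3.26 CPM in DP libraries, a change of -3.03 ± 0.36 (SE, adjusted p = 3.09e-05). Dgka stood at 613, 1237 and 298 CPM and 118, 181 and 53.4 CPM, a change of -2.56 ± 0.30 (SE, adjusted p = 5.06e-05). Ubash3b stood at 32.6, 29.7 and 60.6 CPM and 156, 193 and 152 CPM, a change of 2.12 ± 0.34 (SE, adjusted p = 0.000378). These 3 genes separated NEG from DP libraries. Ptpn7 (1.10 ± 0.17), Cblb (1.12 ± 0.26) and Sla2 (0.48 ± 0.17) rose, and Cbl fell (-0.86 ± 0.24). Of the surface receptors only Cd6 passed, and it fell (-1.03 ± 0.15 SE, adjusted p = 0.00016). Icos was highest in the middle of the series: it read 114, 144 and 118 CPM in NEG, 236, 362 and 223 CPM in INT, 250, 319.6 and 170.1 CPM in SP and 156, 128 and 70.6 CPM in DP libraries. It rose from NEG to INT (1.08 ± 0.24 SE, adjusted p = 0.0435), and DP against NEG did not pass (-0.11 ± 0.23 SE, adjusted p = 0.759).

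Between neighbouring populations fewer members passed. NEG against NDLN had 1 higher and 0 lower, beside 1.32% and 0.242% of all genes, and the gene was Sh2d2a (0.94 ± 0.15 SE, adjusted p = 0.00464). INT against NEG had 2 higher, Icos and Ptpn7, and 1 lower, Txk (-1.61 ± 0.18 SE, adjusted p = 0.00152), beside 0.586% and 0.352%. SP against INT had 1 higher and 10 lower, beside 1.85% and 3.04%. Sh2d2a rose in that step (0.78 ± 0.15 SE, adjusted p = 0.00962), and the fallers included Pag1 (-1.98 ± 0.34 SE, adjusted p = 0.00684), Grap2 (-1.16 ± 0.27), Txk (-1.14 ± 0.18), Lat (-0.94 ± 0.16), Rasgrp1 (-0.87 ± 0.15), Cd6 (-0.73 ± 0.15) and Tespa1 (-0.69 ± 0.16). DP against SP had 0 higher and 1 lower, Tespa1 (-2.64 ± 0.17 SE, adjusted p = 2.51e-06), beside 0.0625% and 1.15%. Between SP and DP cells Tespa1 was also called in the DKO libraries and was not called in the Ebi3L libraries. Leaving out yfp replicates 1, 2 and 3 gave 0, 3 and 0 members for NEG against NDLN, 1, 1 and 0 for INT against NEG, and 3, 5 and 1 for SP against INT, and each named call of these 3 steps was lost without at least 1 library. Over all genes the NEG against NDLN fits had 59, 630 and 25 higher and 4, 133 and 1 lower. INT against NEG had 17, 8 and 1 higher and 2, 1 and 0 lower. SP against INT had 31, 88 and 35 higher and 100, 213 and 45 lower. With all yfp libraries the numbers were 169 and 31, 75 and 45, and 237 and 389. DESeq2 gave splits of 3 and 1, 4 and 1, and 0 and 4 for NEG against NDLN, INT against NEG and DP against SP, while the splits from limma, run on the authors' deposited log2 values, were 1 and 1, 0 and 1, and 0 and 6. Over all genes DESeq2 called 520 higher and 186 lower, 316 and 229, and 66 and 322 in those steps. limma called 170 and 73, 89 and 47, and 11 and 204. The main fit had 169 and 31, 75 and 45, and 8 and 147. With all 60 CD8 libraries and the source as a replicate block, more of all 12574 genes passed too. There 8 members rose and 8 fell from NDLN to NEG, beside 12.2% and 6.19% of all genes. From NEG to INT 11 rose and 5 fell, beside 9.37% and 6.22%. From INT to SP 4 rose and 20 fell, beside 16.6% and 15.2%, and from SP to DP 5 rose and 12 fell, beside 12.3% and 13.5%.

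The DP and NEG libraries of the other genotypes are separate samples. In the 20 DKO libraries 7 members were higher and 22 lower in DP cells, beside 21.4% and 20% of all 12672 genes tested there. All 19 members that fell in yfp libraries fell there, which is 86.4% of the DKO list. Over all genes 81.9% of the yfp list and 66.6% of the DKO list were shared in that direction. In the 15 Ebi3L libraries 5 members were higher and 19 lower, beside 17.6% and 15.7% of all 12822 genes. The Ebi3L and yfp lists shared 17 of the lower members, 89.5% of each, beside 72.3% of the yfp and 73.2% of the Ebi3L list over all genes. Cd3g, Nfatc1, Ptpn7, Sh2d2a and Ubash3b rose in all 3 genotypes. Tespa1 fell in all 3, with a change of -1.14 ± 0.35 (SE, adjusted p = 0.0143) in DKO and -1.95 ± 0.56 (SE, adjusted p = 0.0206) in Ebi3L libraries. Sla2 was called in opposite directions: it rose in yfp libraries (0.48 ± 0.17 SE, adjusted p = 0.0378) and fell in DKO libraries (-0.66 ± 0.17 SE, adjusted p = 0.00454). Cblb did not pass in either of the other genotypes. All 8 of the largest changes in yfp libraries kept their call without each yfp library, and without yfp replicate 3 there were 17 calls in place of 26. Over all genes that fit had 990 higher and 1319 lower, against 2202 and 2045 with all yfp libraries. Among the 71 other pathway genes 14 rose and 24 fell in yfp libraries, with the calcium channel gene Itpr2 at -3.11 ± 0.21 (adjusted p = 3.87e-07) and the Ras regulator Rasa3 at -2.99 ± 0.21 (adjusted p = 6.08e-07). The sum of 6 B cell markers was lower in DP libraries, at 0.195 to 1.85 CPM, than in NEG libraries, at 36.2 to 48.8 CPM, with the B cell markers Ms4a1 and Pax5 at 0 in both. That of 6 NK cell markers was 54 to 136 against 149 to 376 CPM. Of these, Klra8 and Klra4 were at 0 in both groups. Ncr1 and Klrb1c were at 0 in all DP libraries, where the sum held Eomes and Gzma only. Their part in the members' changes was not tested.

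**Figure D4:**
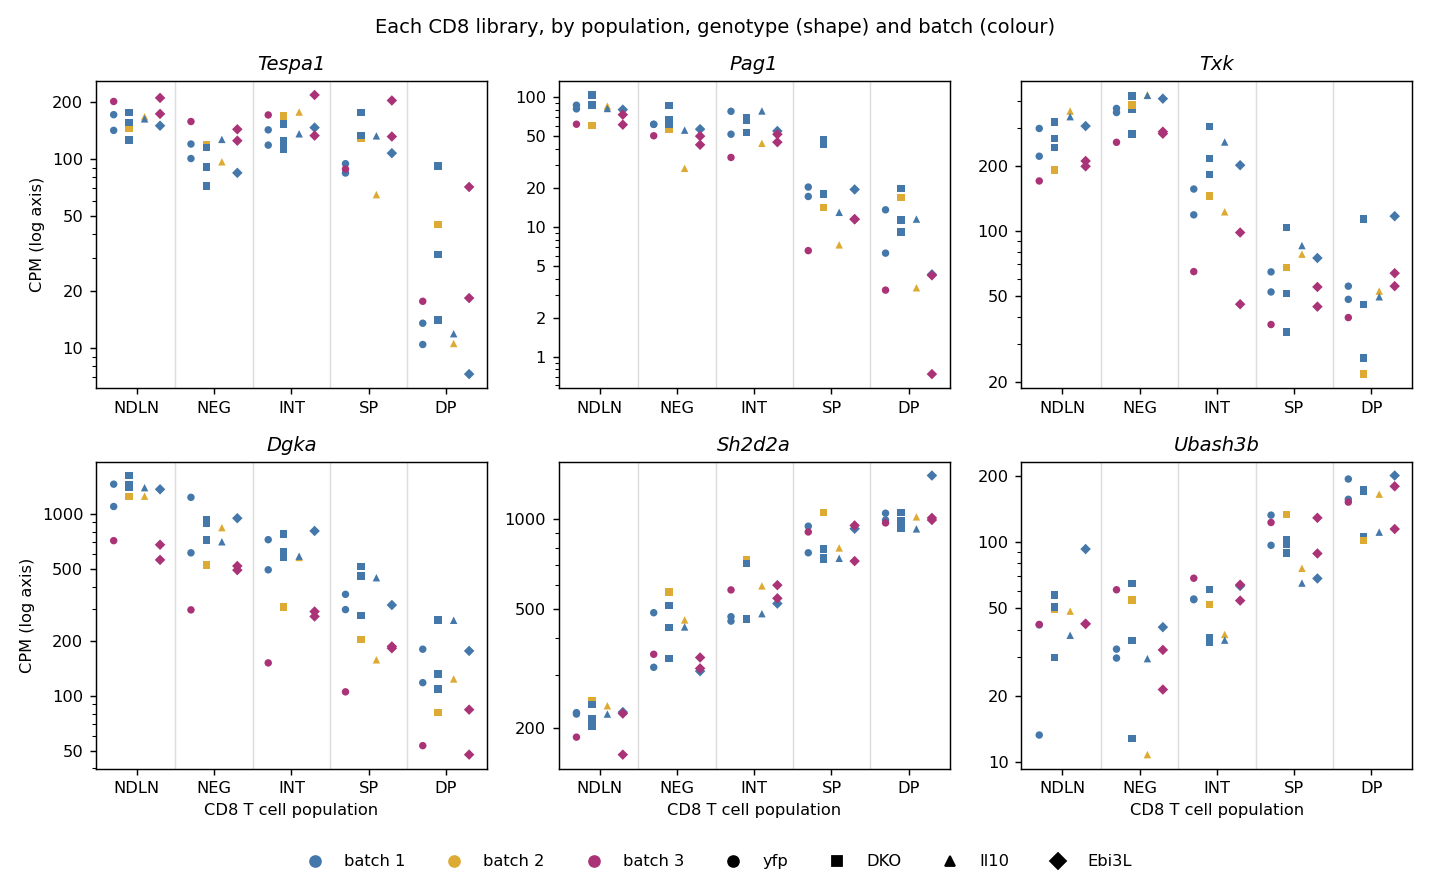
The members Tespa1, Pag1, Txk, Dgka, Sh2d2a and Ubash3b in each of the 60 CD8 libraries, in CPM on a log axis, by population (columns), genotype (shape) and batch (colour), with 1 point a library. Tespa1 drops between SP and DP in the yfp and DKO libraries. Pag1 drops between INT and SP, Txk from INT onward and Dgka across all populations, while Sh2d2a and Ubash3b rise toward DP cells.

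Genotype was compared within each population to ask whether IL-10 and IL-35 from Tregs alter CD8 T cells. No member passed in any of the 5 DKO or 5 Ebi3L comparisons with yfp, beside 0% of all genes in 8 of them and 0.00775% in the INT comparison of each genotype. At an unadjusted p under 0.05 there were 1, 4, 1, 7 and 7 members in the DKO comparisons of NDLN, NEG, INT, SP and DP cells, and 2, 3, 3, 3 and 2 in the Ebi3L comparisons. The share of all genes at that cut is not given, so these counts show nothing particular to the members. DESeq2 called 2 members in DP cells of DKO mice and 0 in the other 9 comparisons, and limma on the deposited values called 0 in all 10. Over all genes DESeq2 called 78 higher and 49 lower in DP cells of DKO mice. The 2 members were Sla2, at -1.0 ± 0.24 (adjusted p = 0.00446), and Tespa1, at 2.20 ± 0.63 (adjusted p = 0.0491), both in DESeq2, against adjusted p = 0.627 and 0.93 in edgeR.

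Sla2 stood at 206, 294 and 219 CPM in yfp and at 141, 104, 110.5 and 145 CPM in DKO libraries of DP cells. All 4 DKO values lay below all 3 yfp values, and the Il10 libraries, at 157 and 181 CPM, lay between the DKO and yfp values. The Ebi3L libraries, at 208, 184 and 104 CPM, overlapped the yfp libraries. Tespa1 stood at 10.4, 13.5 and 17.7 CPM in yfp, 14.1, 45.2, 91.9 and 31.3 CPM in DKO, 10.6 and 11.9 CPM in Il10 and 7.27, 18.4 and 71.3 CPM in Ebi3L libraries of DP cells. The DKO range reached higher than the yfp range and overlapped it. Icos in SP cells stood at 250, 319.6 and 170.1 CPM in yfp and 406, 302, 472 and 429 CPM in DKO libraries, overlapping, with a change of 0.80 ± 0.23 (SE, adjusted p = 0.474). With no low-count filter edgeR called Icos (0.80 ± 0.20, adjusted p = 0.00974) and Tespa1 (0.86 ± 0.22, adjusted p = 0.0142) in SP cells of DKO mice, and Dgka in INT cells of Ebi3L mice (0.59 ± 0.17, adjusted p = 0.0491). Over all genes those fits had 163 higher and 96 lower in the SP cells, and 55 and 106 in the INT cells. The change from NEG to DP was also compared between DKO and yfp, and 0 members passed beside 0% of all 13788 genes, with 5 members at an unadjusted p under 0.05 and 0 called by DESeq2. The share of all genes at the unadjusted cut is again not given. The difference for Sla2 was -1.13 ± 0.27 (SE, adjusted p = 1).

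Levels of 3 receptor chains and of Zap70 stood apart in 1 batch of CD8 libraries. The labels place 15 CD8 libraries in batch 3, of which 5 are yfp and 10 are Ebi3L libraries, and the other 45 in batches 1 and 2. Cd3d ran from 1232 to 2003 CPM, with a median of 1660, in batch 3 and from 524 to 1098 CPM, with a median of 822, in the other batches. Cd3g ran from 1418 to 2462 CPM in batch 3 and from 673 to 1413 CPM elsewhere. Cd3e went the other way, from 197 to 317 CPM in batch 3 and from 503 to 961 CPM elsewhere, and Zap70 ran from 84.2 to 138 CPM against 147 to 306 CPM. These 4 members, 9.09% of the 44, did not overlap between batch 3 and the rest, as did not 3.31% of the 11240 genes with a mean of at least 1 CPM in the CD8 libraries. The Cd3d, Cd3g and Cd3e genes lie within 40056 bases of chromosome 9: Cd3g at chr9:44969572-44980431, minus strand, Cd3d at chr9:44981786-44987339, plus strand and Cd3e at chr9:44998740-45009627, minus strand. Since DKO and Il10 libraries have no member of batch 3, a mean of these genes over a genotype depends on its batches. The main tests above carried batch or the source of the library as a term. The limma fits on the deposited values carried neither.

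**Figure D5:**
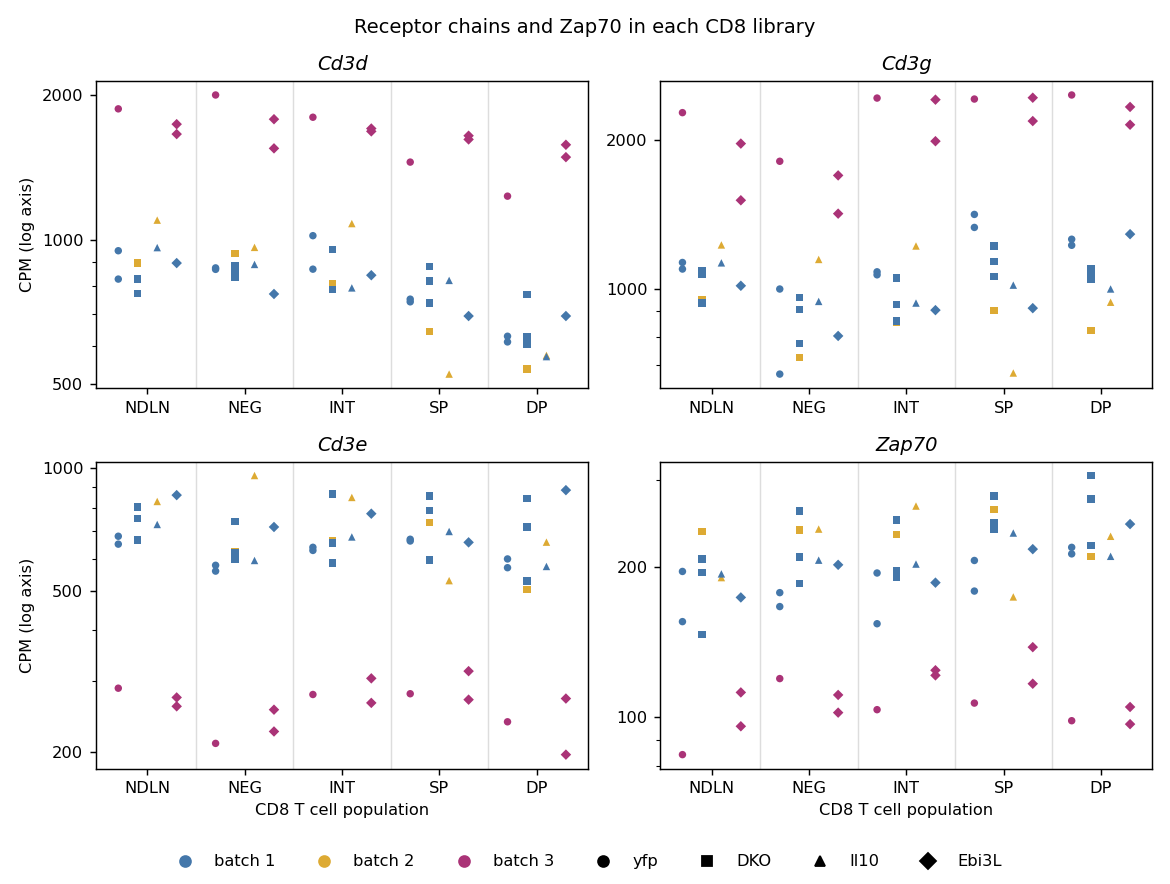
Cd3d, Cd3g, Cd3e and Zap70 in each of the 60 CD8 libraries, in CPM on a log axis, by population, genotype (shape) and batch (colour). The 15 libraries of batch 3 lie above all others for Cd3d and Cd3g and below all others for Cd3e and Zap70.

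In yfp libraries Cd3g was higher in DP than in NEG cells within both batches that hold them. It read 999 and 673 CPM in NEG and 1224 and 1259 CPM in DP cells in the 2 yfp libraries of batch 1, and 1809 and 2462 CPM in the yfp library of batch 3. Its pooled change from NEG to DP was 0.56 ± 0.13 (SE, adjusted p = 0.00386), and that of Cd3d was -0.53 ± 0.11 (SE, adjusted p = 0.00214). The SDs of these genes over yfp libraries, such as 1248 ± 654 CPM for Cd3d in NEG cells (mean ± SD, n = 3), hold this batch difference.

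Tumour DN Tregs against node DN Tregs and DP against NEG CD8 T cells share no library and no cell type. They called 10 of the same members as lower (Dgka, Fyn, Grap2, Lat, Lck, Prkcq, Rasgrp1, Tespa1, Txk and Vav1), which is 76.9% of the Treg and 52.6% of the CD8 list. They called 5 of the same members as higher (Cblb, Cd3g, Sh2d2a, Sla2 and Ubash3b), which is 41.7% and 71.4% of the lists. Over the 12152 genes tested in both, the shares were 46.6% and 30.8% for lower genes and 47.2% and 36.1% for higher genes. Malt1 was called in opposite directions, higher in tumour DN Tregs and lower in DP CD8 cells.

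The promoter windows of 6 members show the sequence upstream of genes that moved together and of the neighbouring CD3 genes. They are the 250 bases before the annotated start, from RefSeq on GRCm38, the build the submitters' processing notes name as mm10. Grap2, Prkcq and Rasgrp1 fell in both series, and Cd3d, Cd3g and Cd3e are the chains that stood apart in batch 3. The RefSeq table used held 34 of the 44 members, 20 of them with a single start. Capitals mark GGAAA (the core of NFAT sites), TGANTCA (AP-1), TGTGGT (RUNX), CTTTGA (TCF and LEF) and GGGCGG (the GC box), each searched on both strands, and no 2 of the matches shown overlap. They run 5′ to 3′ on the gene's strand.
Grap2 (chr15:80623233-80623482, plus strand): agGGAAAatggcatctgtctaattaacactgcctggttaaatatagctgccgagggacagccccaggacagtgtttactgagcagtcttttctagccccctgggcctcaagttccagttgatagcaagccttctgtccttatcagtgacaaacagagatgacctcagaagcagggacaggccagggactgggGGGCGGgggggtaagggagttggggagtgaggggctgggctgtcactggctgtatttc
Prkcq (chr2:11172132-11172381, plus strand): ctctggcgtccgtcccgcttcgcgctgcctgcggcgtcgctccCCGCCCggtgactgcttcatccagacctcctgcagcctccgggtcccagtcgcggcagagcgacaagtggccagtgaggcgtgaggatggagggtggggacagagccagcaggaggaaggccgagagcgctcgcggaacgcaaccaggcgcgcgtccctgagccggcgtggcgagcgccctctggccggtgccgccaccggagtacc
Rasgrp1 (chr2:117342878-117343127, minus strand): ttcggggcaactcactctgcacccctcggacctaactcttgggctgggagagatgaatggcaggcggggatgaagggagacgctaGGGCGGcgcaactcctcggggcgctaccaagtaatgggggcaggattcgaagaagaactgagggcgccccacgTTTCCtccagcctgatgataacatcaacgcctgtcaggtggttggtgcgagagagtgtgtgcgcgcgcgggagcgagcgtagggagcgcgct
Cd3d (chr9:44981536-44981785, plus strand): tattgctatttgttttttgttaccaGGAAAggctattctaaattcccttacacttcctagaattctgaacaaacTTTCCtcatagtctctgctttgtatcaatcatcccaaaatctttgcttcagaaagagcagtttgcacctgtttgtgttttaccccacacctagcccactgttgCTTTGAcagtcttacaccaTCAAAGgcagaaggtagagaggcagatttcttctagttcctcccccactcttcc
Cd3g (chr9:44980432-44980681, minus strand): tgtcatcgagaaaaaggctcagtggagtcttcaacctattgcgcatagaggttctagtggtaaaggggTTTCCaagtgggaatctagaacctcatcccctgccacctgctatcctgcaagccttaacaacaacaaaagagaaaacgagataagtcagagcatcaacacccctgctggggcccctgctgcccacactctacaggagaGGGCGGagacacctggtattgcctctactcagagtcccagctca
Cd3e (chr9:45009612-45009861, minus strand): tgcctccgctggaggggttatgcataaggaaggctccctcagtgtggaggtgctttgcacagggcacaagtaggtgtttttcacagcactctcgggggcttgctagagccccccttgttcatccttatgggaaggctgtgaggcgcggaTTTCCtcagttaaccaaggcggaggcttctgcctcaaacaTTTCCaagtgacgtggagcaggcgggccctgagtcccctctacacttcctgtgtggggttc

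The Grap2 and Rasgrp1 windows each held 1 GGAAA and 1 GGGCGG match, and the Prkcq window held 1 GGGCGG match and no GGAAA. The Cd3d window held 2 GGAAA and 2 CTTTGA matches, the Cd3e window 2 GGAAA matches, and the Cd3g window 1 GGAAA and 1 GGGCGG match. TGANTCA and TGTGGT were in none of the 6 windows. Of all 32851 windows of the same length, 55.6% held GGAAA, 6.75% held TGANTCA, 14% held TGTGGT, 13.8% held CTTTGA and 32.7% held GGGCGG. The GC content was 72.4% in the Prkcq window and 41.2% in the Cd3d window, beside a median of 52.4% over all windows.

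Exons of 12 members share bases with another gene in GENCODE M21, 10 of them with a gene on the opposite strand, and the strand setting of the counting is not given in the sources used here. Dgka (chr10:128720134-128744855, minus strand) shares 105 exon bases, at chr10:128720134-128720238, with Pmel, a pigment cell gene on the opposite strand. Pmel ran from 2.95 to 55.6 CPM in the Treg series and from 0 to 33 CPM in the CD8 series, where it followed Dgka across the 60 libraries (Pearson's r = 0.89, Spearman's rho = 0.9, a description over libraries that share populations and batches). Pmel counts were 0 to 3.39% of the Dgka counts in the CD8 libraries. Sox10, another pigment cell gene, was at 0 in all 30 Treg-series and in 57 of 60 CD8 libraries, and Tyr was at 0 in 26 and 58 of them. Other pigment cell genes were detected more often. Dct was at 0 in 22 Treg-series and 30 CD8 libraries and reached 3.89 and 9.69 CPM. Tyrp1 was at 0 in 21 and 42 and reached 9.76 and 2.67 CPM. The source of the Pmel counts was not tested. Sla2 shares 731 exon bases with Rab5if and Cd247 shares 3007 with Pou2f1, both on the opposite strand, so the values of these members may hold reads of their partners.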

How the data were processed

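Counts of reads per gene in 90 libraries were used as the authors deposited them, unnormalized per the file headers. The authors' deposited log2 expression values were used for alternatives with limma. The submitters' processing notes name STAR, featureCounts, Subread, limma and the build mm10, and the strand setting is not given in the sources used here. The 44 members and all gene lists were chosen with earlier results of these data known.

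Levels are counts per 1000000 of the library total. Tests used edgeR 4.0.16 in R 4.3.3 (TMM, filterByExpr, robust quasi-likelihood test) on the deposited counts, with Benjamini-Hochberg adjustment over all genes and a threshold of 0.05, and were tested on simulated data. All 30 Treg-series libraries were fitted together with batch as the replicate block, the 15 yfp libraries with a batch term, and genotypes within each population with a batch term. In the Treg series the labels give each library a batch, 1 library of each batch in every group, and this batch is the pairing. Deviations from group means correlated with a median of 0.17 over 135 pairs of libraries that share a batch and of -0.14 over 270 other pairs, and within sets of yfp libraries the medians were 0.37 over 30 pairs and -0.3 over 60. Il10 libraries, 2 a population, entered the fits that used all genotypes, were tested against no other genotype and were described by level only. No pair of libraries of a group agreed within sampling noise. A floor of 3 counts is 0.0629 to 0.308 CPM, which covers counting error only.

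The text names up to 8 called members with the largest change in each comparison, other members as descriptions of their level, and at most 6 other pathway genes. Alternatives were DESeq2 1.42.0, limma 3.58.1 on the deposited log2 values without a batch or replicate term, no low-count filter, other blocks and leaving out each replicate. Use of the DKO or Ebi3L libraries in place of yfp was added after seeing the data.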

Additional observations from a re-analysis of the deposited data

Results flagged for a closer look

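In 5 of 220 sets of 4 DKO libraries, 1 library lay far from the others, and chance flags about 1 in 20 such groups. Cd3d read 954 CPM in 1 INT library, Cd3e 740 CPM in 1 NEG library and Tespa1 176 CPM in 1 SP library, each above the other 3. In NDLN libraries Grap2 read 71.2 CPM in 1 library, below the other 3, and Cd28 read 437 CPM in 1 library, above them.

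The change from node to tumour differed between IL10 and DN Tregs, by a test of the difference, for 13 members. On the log2 scale the IL10 change minus the DN change was 2.32 for Themis, 1.54 for Txk, 1.12 for Dgka, 1.03 for Grap2, 0.68 for Vav1 and 0.38 for Lck. It was -2.18 for Icos, -1.35 for Nfatc1, -1.21 for Malt1, -1.12 for Ubash3b, -1.05 for Sla, -0.75 for Sh2d2a and -0.50 for Cd3g. Between Ebi3 and DN Tregs the difference was 2.09 for Tec, 1.25 for Txk, -1.09 for Malt1 and -1.84 for Icos.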

How the results depend on the processing

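Of 110 values of named members, 59 kept their sign and call under every alternative run and 65 without each replicate. Of 943 alternative values 812 kept both, 130 kept the sign and lost the call, and Tespa1 between SP and INT was 0.00 in DKO libraries, against a fall in yfp libraries. The causes were not tested, and fits without a replicate have fewer samples.

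Counts of called members without the replicate block were 8 for naive DN against Teff, 5, 6 for tumour against node IL10 and Ebi3 Tregs, 16, 6 for node IL10 and Ebi3 against DN, 16, 6 for the same in naive mice, 1, 0 for tumour IL10 and Ebi3 against DN, 4 for tumour IL10 against Ebi3, and 8, 2 for the IL10 and Ebi3 differences between sites. The replicate block changed no count of tumour against node DN Tregs by over 1.5 times. Without a replicate the ranges were, in that order, 7 to 11, 5 to 8, 8 to 9, 17 to 23, 8 to 12, 18 to 23, 8 to 13, 1 to 3, 1 to 2, 2 to 8, 7 to 11 and 1 to 2. Calls over all genes dropped in these fits as well. Without the block tumour Ebi3 against DN Tregs had 0 genes higher and 16 lower, against 11 and 81 with it. Without replicate 3 tumour IL10 against Ebi3 Tregs had 18 higher and 14 lower, against 228 and 138 with all replicates.

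DESeq2 called 5 and 6 members in tumour IL10 and Ebi3 against DN Tregs, 8 Ebi3 differences between sites, and 4, 5 and 4 members for NEG against NDLN, INT against NEG and DP against SP. limma called 5 in tumour Ebi3 against DN Tregs and 2, 1 and 6 in those 3 CD8 steps. With all 60 CD8 libraries and the source as a replicate block, 16, 16, 24 and 17 members were called in the 4 CD8 steps in order. With the set of libraries as a replicate block 3 were called for NEG against NDLN and 2 for DP against SP, and with no low-count filter 2 and 2. Without a yfp replicate the 4 steps gave 0 to 3, 0 to 1, 1 to 5 and 1 to 2, and DP against NEG gave 17 to 22. DKO libraries in place of yfp gave 7, 0, 3 and 5 in the 4 steps, and Ebi3L libraries gave 6 for INT against NEG and 5 for DP against SP. Tespa1 was not among those 5. Calls over all genes differed between these fits too. For INT against NEG the DKO libraries had 3 genes higher and 2 lower, the Ebi3L libraries 156 and 70, and the yfp libraries 75 and 45. Between genotypes, no low-count filter gave 2 members in SP cells of DKO mice and 1 in INT cells of Ebi3L mice, and DESeq2 gave 2 in DP cells of DKO mice. The block changed no other call by these limits.

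Groups of 3 libraries limit precision, and the lowest library held 9.73 M counts.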

Other observations

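The Il10 libraries entered the fits that used all genotypes but were tested against no other genotype. In them Dgka averaged 1326, 774, 583, 303 and 193 CPM in NDLN, NEG, INT, SP and DP cells (n = 2 each).

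The share of Pmel counts relative to Dgka counts, which lie partly on the same bases, ran from 0.551% to 5.37% with a median of 2.76% in the 30 Treg-series libraries and had a median of 1.44% in the 60 CD8 libraries. Across the Treg-series libraries Pearson's r between both genes was 0.48 and Spearman's rho 0.41, a description over libraries that share groups and batches.

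Batch 3 levels of further members also lay to 1 side within both genotypes that have such libraries. The median log2 difference of batch 3 from batch 1 over the 5 populations was -2.34 in yfp and -2.30 in Ebi3L libraries for Plcg1, -1.91 and -1.31 for Malt1, and -1.67 and -1.38 for Themis, lower in batch 3 in 5 of 5 populations of each genotype.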
